A study of Saccharomyces cerevisiae with 4 samples.

Results

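Transcript levels of budding yeast were compared between the pair of arrays numbered replicate 2 and the pair numbered replicate 1, each pair holding 1 array of a WPL1 deletion and 1 of wild type. The question is which genes differed between the replicates in the same way in both genotypes. Replicate 2 consisted of strain Y3501 (MATa, wpl1∆::KAN) and of K699 (MATa wild type), and replicate 1 of the same labelled strains. All cells were grown in yeast extract and peptone with 2% glucose to an optical density (OD600) of 0.3 and harvested in exponential growth. Total RNA was hybridised to Affymetrix Yeast Genome 2.0 arrays, 4 in all. The deletion removes Wpl1, which binds cohesin and helps its ring to come off DNA. Of 5449 S. cerevisiae genes measured, 5258 remained after leaving out genes with systematic names starting YIL or YIR, which lie on chromosome IX. Of these, 4072 (77.4%) differed between replicates with the same sign in both genotypes, 1366 of them higher and 2706 lower in replicate 2. The other 1186 had opposite signs or a difference of 0 in a genotype. At the edge of this rule, FRD1, a fumarate reductase, was just inside, with differences of -0.14 in the deletion and -0.0003 in wild type on the log2 scale. QRI1, an enzyme that makes the precursor of cell wall chitin and of glycosylation, was just outside, with -0.17 and 0.

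Yeast cells adjust a large share of their transcripts to growth rate and to stress. When growth slows or proteins misfold, the transcription factors Msn2, Msn4 and Hsf1 raise genes for chaperones, trehalose, glycogen and antioxidant enzymes, while genes that build ribosomes are turned down. Sets of genes for iron, phosphate, copper or sulfur uptake answer to the supply of the nutrient in the medium, and cell cycle genes to the share of cells in each phase.

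The labels give the arrays of 1 replicate number a shared date tag, and each number has 1 tag. Date, culture, RNA preparation, labelling and hybridisation therefore cannot be told apart here, and separate cultures for the arrays of a genotype are not stated in the labels. Median log2 values over genes ranged from 8.25 to 8.43, and 93.1% to 95.9% of genes lay above background, taken as the 95th percentile of the 1746 fission yeast probe sets of the same array. RAD61, the standard name of WPL1, was at 4.44 in deletion replicate 2 and 6.55 in wild type replicate 2, against 3.96 and 6.43 in replicate 1, so both deletion arrays lay below background. The deletion arrays differed from each other in ways the labels do not give. The probe set of S. pombe his5, a gene used as a selectable marker in yeast, read 3.70 in deletion replicate 2 and 3.68 in wild type replicate 2, against 11.91 in deletion replicate 1 and 4.12 in wild type replicate 1. One of the 47 reporter control probe sets read 12.45 and 4.04 in the deletion and wild type arrays of replicate 2, against 3.66 and 4.56 in those of replicate 1. Genes of chromosome IX were higher in deletion replicate 2 than in deletion replicate 1 by a median of 0.70 relative to all genes, against -0.01 in wild type. Whether both deletion arrays came from the same strain was not tested. A strain difference cannot be told apart from the replicate difference in the deletion.

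The arrays also differed in technical measures. The gap between the 3′ and the 5′ probe set was higher in replicate 2 in both genotypes for 6 of 8 yeast control genes, by a median of 0.40 in the deletion and 0.41 in wild type. For TDH1, a glyceraldehyde phosphate dehydrogenase, the gap was -0.33 and -0.28 in the deletion and wild type arrays of replicate 2, against -1.45 and -1.44 in those of replicate 1. For ACT1, which encodes actin, it was 0.20 and 0.05 in replicate 2, against -0.56 and -0.45 in replicate 1, again in the deletion and wild type. The bacterial hybridisation controls were lower in replicate 2 in both genotypes for 20 of 21 probe sets, with median differences of -0.61 in the deletion and -0.76 in wild type. The part of these measures in the results below was not tested, apart from the fit on gene length given with the short genes.

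**Figure D1:**
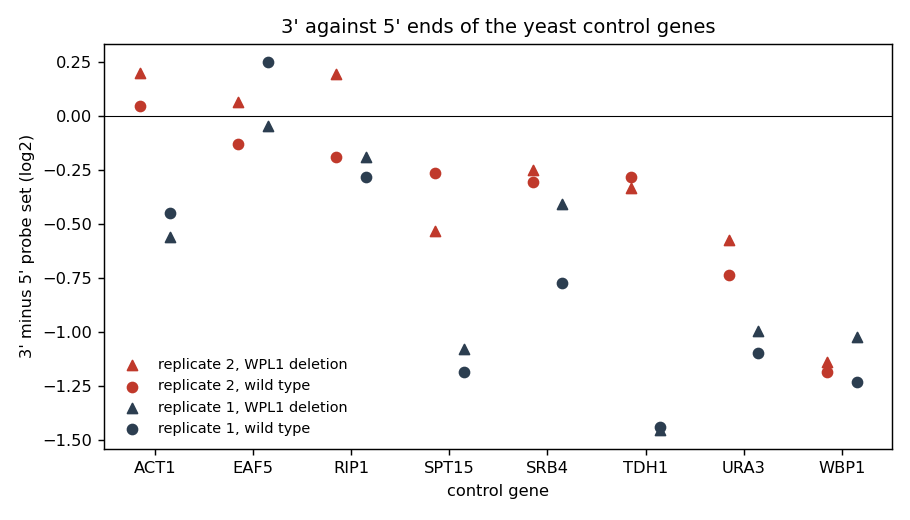
Difference between the 3′ and 5′ probe sets (log2, vertical axis) of 8 yeast control genes (horizontal axis) on each array; red symbols are replicate 2 and dark symbols replicate 1, triangles the WPL1 deletion and circles wild type. The gap of TDH1 lay between -0.33 and -0.28 in replicate 2, above both arrays of replicate 1, whereas that of WBP1 differed little between replicates.

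Of the 5258 genes outside chromosome IX, 1027 passed the test, 306 of them higher and 721 lower in replicate 2. The test was limma with genotype as covariate, with Benjamini-Hochberg adjusted p under 0.05 over all 5449 genes. All had the same sign in both genotypes, which the fit fixes in advance. The disagreement between genotypes is its only residual, so genes of opposite sign could not pass. Over all genes tested, 6.15% were called higher, 13.2% lower and 19.4% in either direction. In size, 240 of the 1027 differed by more than 2-fold, 80 of them higher and 160 lower, and 8 were lower by more than 4-fold, against 0 higher by that much. The median difference over all genes was -0.13 on the log2 scale, -0.20 in the deletion and -0.07 in wild type, and gene groups are given below relative to the median of all genes. Across the 5258 genes the difference in the deletion and that in wild type had a Pearson correlation of 0.780. In bulk RNA, fewer cells with a transcript and less of it per cell cannot be told apart. Counts of calls over all genes under the alternatives below take only genes with the same sign in both genotypes on the arrays as deposited. This holds also where an array was left out. Scaling moved the split: 29.8% of the calls were higher in replicate 2 as deposited, 46.8% with arrays centred on the median gene (726 higher, 825 lower), 49.4% after quantile normalization over genes (700 and 717) and 51.4% after cyclic loess (720 and 682). The smallest adjusted p was 0.0234, and a single residual degree of freedom with a borrowed prior carries these calls. In a fit over all probe sets, fission yeast and unnamed ones included, 0 genes passed (smallest adjusted p 0.133, limma), although 1853 of 5498 S. cerevisiae probe sets had an unadjusted p under 0.05. Of the 174 genes chosen for naming, only 161 were called in the main fit, and all of these lost the call here. Without deletion replicate 1, 117 genes were called higher and 163 lower, and without wild type replicate 1 the numbers were 95 and 235. Without deletion replicate 2 the counts were 611 and 1010, and without wild type replicate 2 the numbers were 340 and 1133. Of the 174 genes chosen for naming by the stated rule, 78 lost their call without deletion replicate 1, 71 without wild type replicate 1, then 6 without deletion replicate 2 and 4 without wild type replicate 2.

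**Figure D2:**
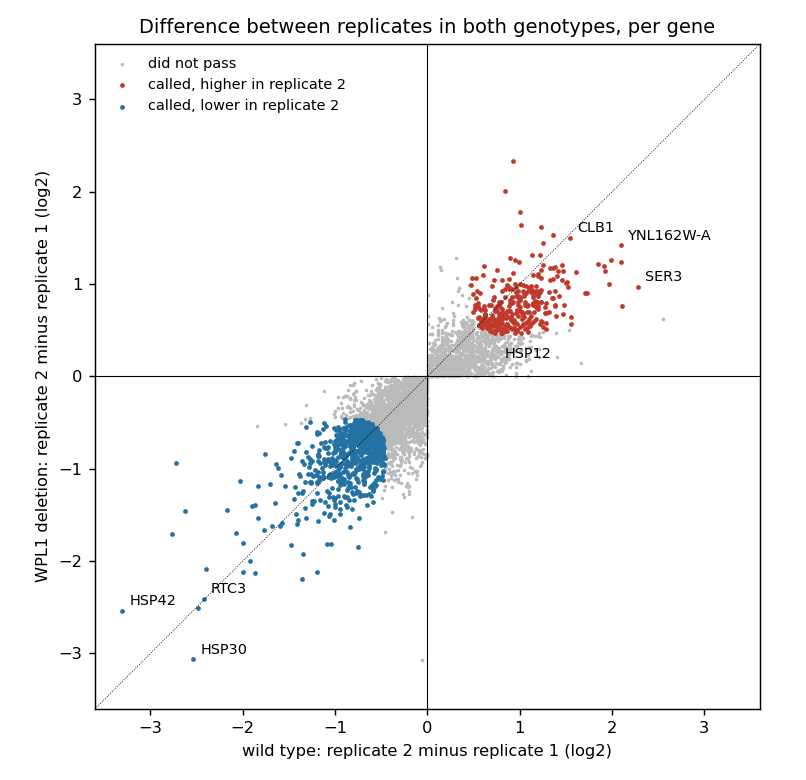
Difference between replicate 2 and replicate 1 (log2) in the WPL1 deletion (vertical axis) against that in wild type (horizontal axis) for the 4072 genes with the same sign in both; red points are the 306 genes called higher, blue points the 721 called lower and grey points genes that did not pass, and the dotted line marks equal differences. By construction only 2 quadrants are filled, and HSP42 and HSP30 lie farthest out on the lower side.

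Genes of the general stress response were lower in replicate 2. Of 43 genes in this list, 26 were called lower and 0 higher, and the list's median relative to all genes was -0.78, with -0.70 in the deletion and -0.85 in wild type. HSP42, a small heat shock protein that collects misfolded proteins in aggregates, was at 7.75 and 7.21 in the deletion and wild type arrays of replicate 2, against 10.29 and 10.52 in those of replicate 1. This was the largest called difference outside chromosome IX, -2.92 ± 0.22 (SE, limma adjusted p 0.0234). GLK1, a glucokinase, was at 7.91 and 7.81 in deletion and wild type replicate 2, against 10.03 and 9.81 in replicate 1. Its region overlaps the annotated gene YCL042W, so signal from both cannot be told apart. GSY1, a glycogen synthase, was lower by 3.51-fold, and SPI1, a cell wall protein of stressed and stationary cells, by 3.42-fold. Of the trehalose genes, TPS2, the phosphatase, differed by -1.72, TPS1, the synthase, by -1.44, and TSL1, a regulatory subunit, by -0.94, while TPS3, the other regulatory subunit, did not pass at -0.40. NTH1, the trehalase that breaks the sugar down, was lower as well, at -0.82. GPD1, which makes glycerol under osmotic stress, was at 8.81 and 8.24 in the deletion and wild type arrays of replicate 2, against 10.00 and 10.08 in those of replicate 1. The cytosolic catalase gene CTT1 differed by -0.99 and the mitochondrial superoxide dismutase gene SOD2 by -1.02. SOL4, a 6-phosphogluconolactonase, was above background in both arrays of replicate 1 and in neither of replicate 2, at least 3.02-fold lower.

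Not every stress gene was lower. HSP12, a membrane-stabilising protein and a common reporter of Msn2 and Msn4, was at 9.39 and 8.86 in the deletion and wild type arrays of replicate 2, against 9.25 and 8.10 in replicate 1, a difference of 0.45 that did not pass (adjusted p 0.154). YGP1, a secreted glycoprotein of starved cells, differed by -0.10 and HOR7, an osmotic stress gene, by -0.07. With deletion replicate 1 left out, the list had 16 genes called lower and without wild type replicate 1 it had 20, against 30 without deletion replicate 2 and 29 without wild type replicate 2. With a required fold of 1.2 it had 5.

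Genes listed as heat shock chaperones, a list that here also takes in HSP30 and BTN2, were lower too. Of the 26, 16 were called lower and 0 higher, and 25 were lower in both genotypes. HSP30, a plasma membrane protein that restrains the proton pump, was at 6.83 and 7.07 in deletion and wild type replicate 2, against 9.90 and 9.61 in replicate 1. The difference was -2.80 ± 0.18 (SE). BTN2, which sorts misfolded proteins into deposits, was at 8.29 and 7.51 in replicate 2 (deletion and wild type), against 10.00 and 10.28 in replicate 1. HSP82, the stress-inducible Hsp90, was lower by 2.99-fold, and HSC82, its constitutive partner, with a difference of -0.93. The Hsp90 co-chaperones AHA1 and STI1 differed by -1.12 and -1.06, and the disaggregase HSP104 by -1.07. The mitochondrial chaperone genes HSP78, MDJ1 and HSP60 differed by -1.29, -1.06 and -0.81. Among Hsp70 genes, SSA1 did not pass and SSA2 did, at -0.94 and -0.90, whereas the ribosome-bound SSB1 and SSB2 stood at -0.23 and -0.38 and did not pass. SSE1, a nucleotide exchange factor, was the one member higher in both genotypes, at 0.38, and did not pass. The median of the list relative to all genes was -0.69, with -0.35 in the deletion and -1.04 in wild type, a difference between genotypes that was not tested, and -0.306 over the arrays left without wild type replicate 2. With either replicate 1 array left out, 5 chaperones were called lower, against 21 without deletion replicate 2 and 12 without wild type replicate 2.

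**Figure D3:**
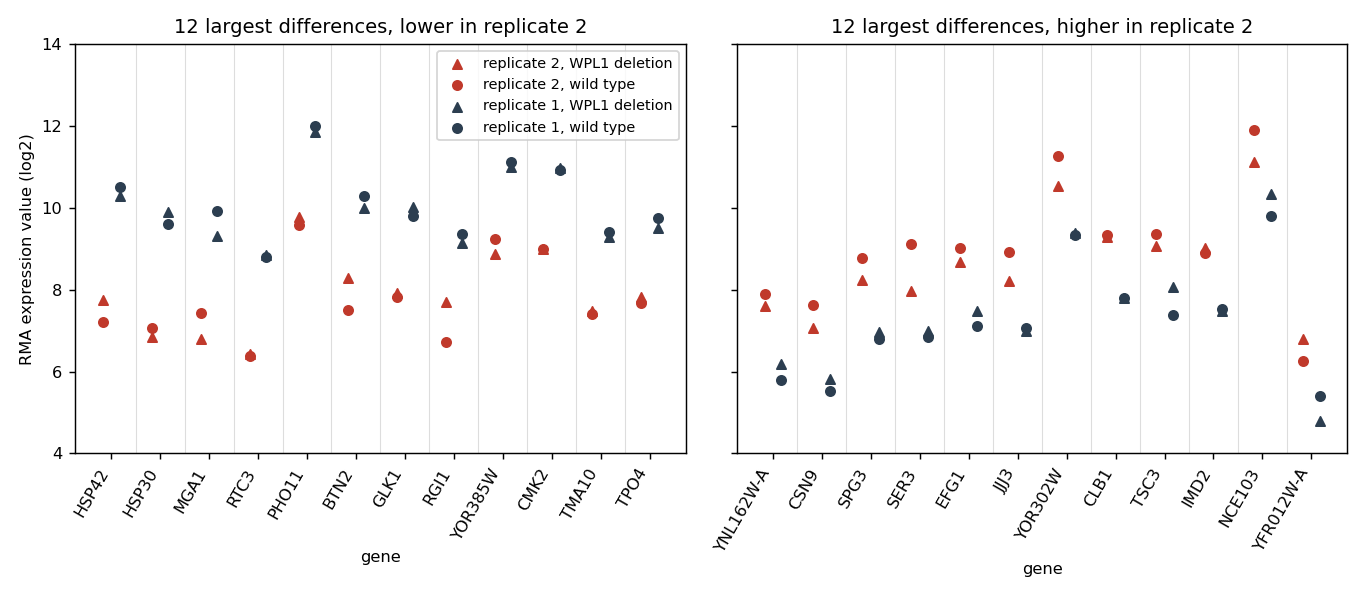
Log2 expression values (vertical axis) on each array of the 12 genes with the largest called differences in each direction (horizontal axis), lower in replicate 2 in the left panel and higher in the right panel; red symbols are replicate 2 and dark symbols replicate 1, triangles the WPL1 deletion and circles wild type. The 24 genes were picked by called differences of the same sign in both genotypes, so the separation of replicates follows largely from the choice. HSP42 sits at 7.75 in the deletion and 7.21 in wild type of replicate 2.

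Further protein quality and degradation genes were lower in part. Of 14 targets of the unfolded protein response, 6 were called lower and 0 higher, with a median of -0.42 relative to all genes. KAR2, the Hsp70 of the endoplasmic reticulum, was at 11.23 and 10.94 in the deletion and wild type arrays of replicate 2, against 12.09 and 12.24 in those of replicate 1. Its partner SCJ1 differed by -1.07 and PDI1, the protein disulfide isomerase, by -0.64, while HAC1, the factor that drives the response, stood at 0.30 and did not pass. Of 35 proteasome genes, 9 were called lower and 0 higher, with a median of -0.15 relative to all genes. PRE5, a subunit of the core particle, was at 8.99 and 8.81 in deletion and wild type replicate 2, against 10.25 and 10.17 in replicate 1, and the ubiquitin receptor RPN10 differed by -1.04. In the list of 21 oxidative stress genes 6 were lower, among them AHP1 and TSA1, both peroxiredoxins, at -1.30 and -0.89. The median of this list relative to all genes was -0.22. Of 40 autophagy and vacuolar genes, 9 were lower and 1 higher, with a median of -0.12 relative to all genes. The vacuolar protease PRB1 differed by -1.16 and ATG8, whose product coats autophagosomes, by -0.77. Without deletion replicate 1, these 4 lists had 3, 2, 1 and 2 genes called lower, and without wild type replicate 1 the numbers were 2, 5, 3 and 3. The counts without deletion replicate 2 were 8, 13, 8 and 9, and without wild type replicate 2 the numbers were 7, 10, 7 and 11. The call of AHP1 was lost without either replicate 1 array, and that of TSA1 without deletion replicate 1.

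Central carbon metabolism was lower in part. Of 21 genes of glycolysis and fermentation, 9 were called lower and 1 higher, and the median relative to all genes was -0.32. PGK1, phosphoglycerate kinase, was at 12.04 and 11.55 in the deletion and wild type arrays of replicate 2, against 13.10 and 12.95 in replicate 1. TPI1, triose phosphate isomerase, was lower by 2.29-fold, ADH1, the main alcohol dehydrogenase, by 1.74-fold, and PDC1, pyruvate decarboxylase, with a difference of -0.69. PDC5, a second pyruvate decarboxylase, went the other way, at 10.27 and 9.88 in deletion and wild type replicate 2 against 9.35 and 9.35 in replicate 1. The glyceraldehyde phosphate dehydrogenase gene TDH1, one of the control genes above, stood at 0.16 and did not pass, and TDH3 stood at -0.34 and did not pass. Of 19 tricarboxylic acid cycle genes, 5 were lower and 0 higher, led by MDH1, malate dehydrogenase, at -1.14 and IDH1, a subunit of isocitrate dehydrogenase, at -1.08. Of 26 glucose-repressed genes 6 were lower, led by CIT2, the peroxisomal citrate synthase, at -1.16. The gluconeogenic gene FBP1 was not above background in either array of replicate 2, at least 1.06-fold lower. HXT4, a glucose transporter, was higher at 0.69 and RGT1, the repressor of such transporters, lower at -0.78. With deletion replicate 1 left out, 3 glycolytic, 1 cycle and 1 glucose-repressed gene were called lower, and without wild type replicate 1 the numbers were 2, 2 and 2. With deletion replicate 2 left out, the counts were 11, 10 and 5, and without wild type replicate 2 the numbers were 10, 6 and 10. The calls of ADH1, HXT4, RGT1 and FBP1 were lost without either replicate 1 array, and that of IDH1 without deletion replicate 1.

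Of 36 nuclear genes of the respiratory chain and ATP synthase, 8 were called higher and 0 lower, with 18 higher and 14 lower in both genotypes. The median relative to all genes was 0.26, against 0.0840 without deletion replicate 2 and 0.141 without wild type replicate 1. COX7, a small subunit of cytochrome c oxidase, was at 10.38 and 10.32 in the deletion and wild type arrays of replicate 2, against 9.25 and 8.71 in replicate 1. QCR9, a small subunit of the cytochrome bc1 complex, was higher by 2.41-fold, COX12 by 2.03-fold and ATP19 by 2.03-fold. The large catalytic subunit ATP1 stood at -0.57 and NDI1, the internal NADH dehydrogenase, at -0.59, neither of which passed. These are short genes in general, with a median gene length of 402 bases (the span from the R64 table, introns included). With the trend on gene length removed, 6 were called higher and 2 lower and the median was 0.111, a fit added after the data had been seen. Without wild type replicate 1 there were 4 called higher, against 5 without deletion replicate 1, then 8 without wild type replicate 2 and 8 higher with 3 lower without deletion replicate 2.

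**Figure D4:**
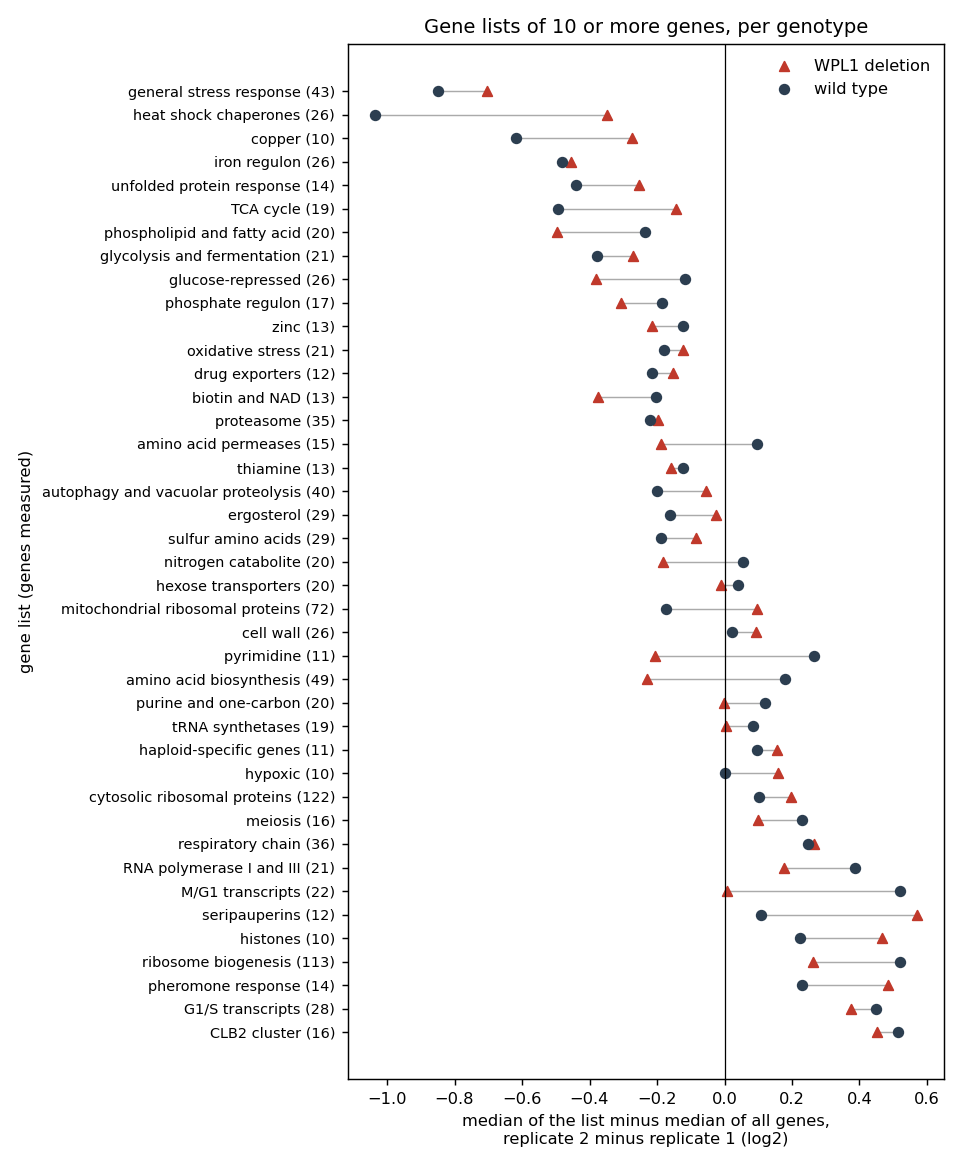
Median difference between replicate 2 and replicate 1 of each gene list of 10 or more genes, minus that of all genes (log2, horizontal axis), with the number of genes measured in brackets; red triangles are the WPL1 deletion and dark circles wild type. The general stress response lies at -0.70 in the deletion and -0.85 in wild type, and the CLB2 cluster at 0.45 and 0.52.

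Genes for nutrient uptake were lower in several groups. Of 26 genes of the iron regulon, 13 were called lower and 0 higher, 24 were lower in both genotypes, and the median relative to all genes was -0.48. ENB1, a transporter of the iron chelator enterobactin, was at 6.56 and 6.70 in deletion and wild type replicate 2, against 7.99 and 8.03 in replicate 1. TIS11 (also CTH2), which destroys transcripts of iron-using proteins when iron is scarce, was lower by 2.46-fold. FET3, the oxidase of high-affinity iron uptake, was at 10.27 and 10.57 in the deletion and wild type arrays of replicate 2, against 11.31 and 11.57 in those of replicate 1, and its permease FTR1 differed by -0.56. The cell wall proteins FIT2 and FIT3, which retain iron chelators, stood at -0.31 and -0.60 and did not pass. When deletion replicate 1 was removed, 6 iron genes were called lower, and without wild type replicate 1 the number was 3, against 14 without deletion replicate 2 and 17 without wild type replicate 2.

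Of 17 phosphate regulon genes 4 were lower and 0 higher. PHO11, a secreted acid phosphatase whose probe set can also detect near-identical genes, was at 9.77 and 9.59 in the deletion and wild type arrays of replicate 2, against 11.85 and 11.99 in replicate 1, a 4.73-fold difference. PHO5, the main acid phosphatase, was lower by 2.59-fold and PHO89, a phosphate transporter, by 3.10-fold. Of 10 copper genes 4 were lower, led by SOD1, the copper-zinc superoxide dismutase, at -1.14 and CCS1, its copper chaperone, at -1.09. Of 13 zinc genes 3 were lower, with the high-affinity transporter ZRT1 at -0.95. Of 13 genes for biotin and NAD 4 were lower; PNC1, the nicotinamidase, which is also in the stress list, was lower by 2.57-fold. Of 29 genes for sulfur amino acids 10 were lower and 0 higher, and the list's median relative to all genes was -0.07; SAM2, an S-adenosylmethionine synthetase, was at 9.88 and 9.39 in deletion and wild type replicate 2, against 10.88 and 11.01 in replicate 1. In this order of lists, 3, 2, 0, 1 and 1 genes were called lower without deletion replicate 1, and 3, 2, 0, 2 and 3 without wild type replicate 1. After removal of deletion replicate 2, the counts were 5, 6, 3, 4 and 10, and without wild type replicate 2 the numbers were 9, 5, 5, 5 and 9. The call of ZRT1 was lost without either replicate 1 array.

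Of 20 genes for phospholipids and fatty acids, 9 were called lower and 0 higher, with a median of -0.34 relative to all genes, or -0.165 without deletion replicate 2. OPI3, a methyltransferase of phosphatidylcholine synthesis, was at 8.20 and 7.98 in the deletion and wild type arrays of replicate 2, against 9.34 and 9.30 in replicate 1. CHO1, phosphatidylserine synthase, differed by -0.98, OLE1, the fatty acid desaturase, by -0.91, and both the activator INO2 and the repressor OPI1 of this pathway by -0.73 and -0.74. INO1, which makes inositol phosphate, was below background in both arrays of replicate 2 and in 1 of replicate 1. Of 29 ergosterol genes 4 were lower and 0 higher, a share near the 13.2% of all genes called lower, and 2 were called higher with arrays centred, after quantile normalization and after cyclic loess. The 4 were led by UPC2, the sterol-sensing activator, at -1.45 and HMG2, an HMG-CoA reductase, at -1.01. Without deletion replicate 1 there were 3 and 2 genes of the phospholipid and ergosterol lists that were called lower, and without wild type replicate 1 the numbers were 5 and 2. Without deletion replicate 2 the counts were 9 and 7, and without wild type replicate 2 the numbers were 12 and 9. The call of OLE1 was lost without either replicate 1 array, and that of HMG2 without wild type replicate 1.

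Genes that build ribosomes were higher. Of 113 ribosome biogenesis genes, 22 were called higher and 1 lower, 63 were higher in both genotypes, and the median relative to all genes was 0.37, with 0.26 in the deletion and 0.52 in wild type. RRP14, a nucleolar protein of early subunit assembly, was at 10.74 and 11.31 in deletion and wild type replicate 2, against 9.81 and 9.93 in replicate 1. NOC2, which exports large-subunit precursors, was at 10.58 and 10.95 in replicate 2 (deletion and wild type), against 9.71 and 9.53 in replicate 1. NOP53, another large-subunit factor, was higher by 2.17-fold and NOP4 by 2.10-fold. UTP4, UTP9 and UTP13, subunits of the complex that processes small-subunit RNA, differed by 1.06, 0.98 and 0.90, whereas UTP10 of that complex was the one member called lower, at -0.66. Of 21 genes of RNA polymerases I and III, 3 were higher and 0 lower, among them RRN3, the initiation factor of polymerase I, at 1.10. With deletion replicate 1 left out, 4 biogenesis genes were called higher, and without wild type replicate 1 the number was 5, against 49 without deletion replicate 2 and 22 without wild type replicate 2. With arrays centred on the median gene the count was 44. The polymerase list had 3 genes called higher and 0 lower without deletion replicate 1, then 1 and 0 without wild type replicate 1, 6 and 0 without deletion replicate 2 and 3 and 1 without wild type replicate 2. The call of RRP14 was lost without deletion replicate 1, and that of RRN3 without wild type replicate 1.

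The ribosomal proteins themselves differed less. Of 122 cytosolic ribosomal protein genes, 12 were called higher and 1 lower, 52 were higher and 49 lower in both genotypes, and the median relative to all genes was 0.14, or 0.0517 after quantile normalization and 0.0519 after cyclic loess. With a trended and robust prior 22 were called higher and 12 lower. RPS10B was at 12.33 and 12.39 in the deletion and wild type arrays of replicate 2, against 11.24 and 11.25 in replicate 1, and its near-identical partner RPS10A was higher by 1.91-fold. Probe sets of such pairs can share targets. RPL26B was higher by 2.00-fold and RPL39 by 1.99-fold, while RPL4B was lower, at -0.70. Of 72 mitochondrial ribosomal proteins, 9 were lower and 4 higher, shares near the 13.2% and 6.15% of all genes called lower and higher. RSM7 was at 8.77 and 8.52 in deletion and wild type replicate 2, against 9.69 and 9.62 in replicate 1. MRP2 differed by 0.74. Without deletion replicate 1, 5 and 0 cytosolic genes were called higher and lower, without wild type replicate 1 the numbers were 3 and 0, without deletion replicate 2 they were 19 and 3, and without wild type replicate 2 they were 18 and 5. For the mitochondrial list, 0 were called higher and 1 lower without either replicate 1 array, 3 and 26 without deletion replicate 2, and 10 and 6 without wild type replicate 2. The call of RPL39 was lost without wild type replicate 1, and that of RPS10A without deletion replicate 1.

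Among the cell cycle lists, calls higher in replicate 2 numbered 5 of 16 in the CLB2 cluster, 5 of 28 in G1/S and 4 of 22 in M/G1. Of 16 genes of the CLB2 cluster, which are transcribed as cells enter mitosis, 5 were called higher and 0 lower, with a median of 0.52 relative to all genes. CLB1, a mitotic cyclin, was at 9.29 and 9.33 in the deletion and wild type arrays of replicate 2, against 7.79 and 7.79 in those of replicate 1, a difference of 1.52 ± 0.14 (SE; adjusted p 0.0258). CLB2, the main mitotic cyclin, was at 9.72 and 9.67 in deletion and wild type replicate 2, against 8.60 and 8.75 in replicate 1. MYO1, the myosin of the cytokinetic ring, differed by 0.98, the kinase gene ALK1 by 0.92 and the polo kinase CDC5 by 0.63. SWI5, a transcription factor gene of the same cluster, stood at -0.04 and KIN3, a kinase gene, at -0.00, so the cluster did not move as a whole.

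Of 28 G1/S transcripts 5 were called higher and 0 lower, with a median of 0.44 relative to all genes. CLB6, an S phase cyclin, was at 7.42 and 7.64 in deletion and wild type replicate 2, against 6.74 and 6.18 in replicate 1. The G1 cyclin CLN1 was at 9.42 and 9.80 in replicate 2 (deletion and wild type), against 8.50 and 8.82 in replicate 1, and CLN2 differed by 0.73. MCD1, the cleavable subunit of the cohesin ring, differed by 0.74 and SMC3, another ring subunit, was higher by 2.01-fold, whereas SCC4, part of the cohesin loader, was lower at -0.75. RNR1, the large subunit of ribonucleotide reductase, stood at 0.50 and did not pass, and the polymerase clamp POL30 at -0.09. Of 22 M/G1 transcripts 4 were called higher and 1 lower, and 11 had the same sign in both genotypes. Their median relative to all genes was 0.01 in the deletion and 0.52 in wild type, and 0.0560 over both without wild type replicate 2, against 0.31 with all arrays. DSE1 and DSE2, daughter-cell proteins that act in separation, differed by 1.05 and 0.94, and SWI4, the factor that drives G1/S genes, by 0.92. Of 10 histone genes 0 were called, with 7 higher in both genotypes; HTA2, a histone H2A gene, was the 1 member with an unadjusted p under 0.05, at 0.0379 (adjusted p 0.104, limma).

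The cell cycle counts depended on single arrays. Without deletion replicate 1 the calls on the higher side were 3 in the CLB2 cluster, 1 in G1/S and 1 in M/G1, and without wild type replicate 1 the numbers were 2, 1 and 3. After removal of deletion replicate 2, the counts were 7, 9 and 9, and without wild type replicate 2 the numbers were 5, 6 and 4. The calls of ALK1, CLN2, MCD1, SCC4 and CDC6, a replication licensing factor, were lost without either replicate 1 array. Those of CLB6, MYO1 and SMC3 were lost without wild type replicate 1, and those of CLN1, SWI4 and DSE2 without deletion replicate 1. The call of CLB1 held without each array in turn, as did those of HSP42 and HSP30.

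Among the mating-type genes, STE2, the alpha factor receptor of MATa cells, was at 11.04 and 11.07 in deletion and wild type replicate 2, against 10.72 and 10.65 in replicate 1, and STE3, the receptor of alpha cells, was below background in all 4 arrays, as was HMLALPHA1, the alpha regulator gene of the silent mating locus. Other genes of alpha cells lay above background, SAG1 and MF(ALPHA)2 on 4 arrays and MF(ALPHA)1 on 3. SAG1, the alpha agglutinin, was at 7.16 and 7.63 in the deletion and wild type arrays of replicate 2, against 7.24 and 6.80 in those of replicate 1. The alpha factor gene MF(ALPHA)2 was at 6.52 and 6.77 in deletion and wild type replicate 2, against 6.86 and 7.0 in replicate 1. MF(ALPHA)1, the other alpha factor gene, was at 6.85 and 6.63 in replicate 2 (deletion and wild type), against 5.75 and 6.02 in replicate 1, and was called higher by 0.85 (limma, adjusted p 0.0378), a call lost without deletion replicate 1. AGA2, the binding subunit of the mating agglutinin, was at 9.82 and 10.13 in the deletion and wild type arrays of replicate 2, against 8.65 and 8.77 in replicate 1. MFA1, an a-factor precursor gene, was higher by 1.86-fold, and this call was lost without either replicate 1 array and without deletion replicate 2. Of 14 pheromone response genes 3 were higher and 2 lower. Among them were KAR4, a factor of nuclear fusion, at 0.65 and PRM10, a pheromone-regulated membrane protein gene, at -0.91. The region of PRM10 overlaps the annotated gene YJL107C, so signal from both cannot be told apart. PRM6, also called higher, lay below background throughout. Of 16 meiosis genes 5 lay above background in both arrays of a replicate, and ZIP1 alone was called, higher at 0.71. Of 6 genes specific to MATa cells 2 were called higher and 0 lower, with 1 and 0 without deletion replicate 1, the same numbers without wild type replicate 1, 1 and 1 without deletion replicate 2 and 2 and 0 without wild type replicate 2. The pheromone response list had 0 higher and 0 lower without deletion replicate 1, then 2 and 1 without wild type replicate 1, 2 and 1 without deletion replicate 2 and 3 and 4 without wild type replicate 2. The call of KAR4 was lost without either replicate 1 array, that of PRM10 without deletion replicate 1, and that of ZIP1 without deletion replicate 2 or either wild type array.

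Cell wall and subtelomeric families were mixed. Of 26 cell wall genes 4 were called lower and 1 higher, near the 13.2% and 6.15% of all genes called lower and higher. The list's median relative to all genes was -0.04. TIP1, a mannoprotein induced by cold, was at 10.01 and 10.16 in deletion and wild type replicate 2, against 11.57 and 11.56 in replicate 1. SLT2, the kinase of the cell integrity pathway, was lower by 2.19-fold. FKS1, a glucan synthase, was the one called higher, at 0.56. Of 12 seripauperin genes (PAU), a family of near-identical subtelomeric genes, 3 were higher and 0 lower. PAU4 was at 6.88 and 6.65 in the deletion and wild type arrays of replicate 2, against 5.10 and 5.65 in replicate 1, where it was not above background, at least 1.82-fold higher; its probe set detects several members, so the gene is uncertain. HXT11, a subtelomeric transporter, passed the test but lay below background on every array. When deletion replicate 1 was removed, 3 cell wall genes were called lower and 2 PAU genes higher, and without wild type replicate 1 the numbers were 3 and 2. Without deletion replicate 2 the counts were 6 and 3, and without wild type replicate 2 the numbers were 6 and 3.

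Synthesis of amino acids and nucleotides did not move in 1 direction. Of 49 amino acid biosynthesis genes 1 was called higher and 4 lower, and 23 had the same sign in both genotypes. The list's median relative to all genes was -0.23 in the deletion and 0.18 in wild type. It had 1 higher and 0 lower without deletion replicate 1, then 0 and 1 without wild type replicate 1, 8 and 5 without deletion replicate 2 and 1 and 16 without wild type replicate 2. SER3, the first enzyme of serine synthesis, was at 7.96 and 9.13 in deletion and wild type replicate 2, against 6.99 and 6.85 in replicate 1, and its region overlaps the noncoding gene SRG1, so that signal from both cannot be told apart. This call was lost without either replicate 1 array. GLN1, glutamine synthetase, was at 11.08 and 11.28 in the deletion and wild type arrays of replicate 2, against 12.05 and 12.11 in replicate 1. In the purine list 2 genes were called higher and 3 lower, with 1 and 0 without either replicate 1 array, 4 and 5 without deletion replicate 2 and 2 and 4 without wild type replicate 2. The purine list holds 20 genes, and its shares called with all arrays lay near the 6.15% and 13.2% of all genes called higher and lower. Its median relative to all genes was 0.04. IMD2 and IMD3, paralogous IMP dehydrogenases that start guanine nucleotide synthesis, were higher. IMD2 was at 9.01 and 8.88 in deletion and wild type replicate 2, against 7.48 and 7.52 in replicate 1. Its probe set can also detect similar sequences, so this signal may not come from IMD2 alone. IMD4, another paralog, was lower at -0.67, and it contains the small nucleolar RNA gene SNR54. Without either replicate 1 array the calls of GLN1, IMD3 and IMD4 were lost, while that of IMD2 held. Of 20 genes under nitrogen catabolite control 4 were lower, led by MEP1, an ammonium permease, at -1.10; without deletion replicate 1 there was 1 and without wild type replicate 1 there were 0, against 4 lower with 1 higher without deletion replicate 2 and 5 lower with 1 higher without wild type replicate 2.

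Other genes with large differences fell outside these groups. MGA1, related to heat shock factor and active in filamentous growth, was at 6.80 and 7.42 in the deletion and wild type arrays of replicate 2, against 9.30 and 9.91 in replicate 1. Both genotypes differed alike here, and the deletion was lower than wild type in both replicates. RTC3, of unclear function in RNA metabolism, was at 6.43 and 6.37 in deletion and wild type replicate 2, against 8.84 and 8.79 in replicate 1. RGI1, a gene of respiratory energy metabolism, was at 7.69 and 6.73 in replicate 2 (deletion and wild type), against 9.14 and 9.35 in replicate 1. CMK2, a calmodulin-dependent kinase, differed by -1.96 and TPO4, a polyamine exporter, by -1.88. TMA10, a ribosome-associated protein of stressed cells, was lower by 3.74-fold and YOR385W, an uncharacterised open reading frame, by 3.99-fold.

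On the higher side, YNL162W-A, a short open reading frame of 219 bases, was at 7.60 and 7.89 in the deletion and wild type arrays of replicate 2, against 6.18 and 5.79 in replicate 1. CSN9, a subunit of the COP9 signalosome, was at 7.06 and 7.62 in deletion and wild type replicate 2, against 5.83 and 5.52 in replicate 1. EFG1, a factor of ribosomal RNA maturation, was higher by 2.94-fold and JJJ3, which acts in the diphthamide modification of a translation factor, by 2.89-fold. TSC3, an activator of sphingolipid synthesis, was at 9.06 and 9.36 in deletion and wild type replicate 2, against 8.06 and 7.39 in replicate 1. YOR302W, the leader peptide of the arginine gene CPA1 with 78 bases, was higher by 2.88-fold, and SPG3, a gene needed in stationary phase, by 3.09-fold. NCE103, carbonic anhydrase, was at 11.11 and 11.90 in the deletion and wild type arrays of replicate 2, against 10.35 and 9.80 in replicate 1, and its call was lost without wild type replicate 1. YFR012W-A, of 87 bases, was above background in both arrays of replicate 2 and in neither of replicate 1, at least 1.53-fold higher, and its call was lost without deletion replicate 1.

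The number of calls differed between bins of gene length. Genes were ordered by length into 10 bins of nearly equal size. Of the 529 genes in the shortest bin, of 51 to 453 bases, 83 (15.7%) were called higher and 46 (8.70%) lower in replicate 2. In the fourth bin, of 864 to 1032 bases, 12 of 524 were called higher and 104 lower, and in the longest bin 38 of 525 were higher and 43 lower. Among the 12 genes named with the largest higher differences, CSN9, SPG3, YOR302W, TSC3, YNL162W-A and YFR012W-A have gene lengths of 489, 384, 78, 243, 219 and 87 bases. The rest are longer, with 1410 for SER3, 1416 for CLB1, 1572 for IMD2, 702 for EFG1, 666 for NCE103 and 519 for JJJ3. When a trend on gene length was removed from each array, 461 genes were called higher and 1108 lower outside chromosome IX. These were counted among genes with the same sign in both genotypes as deposited. In that fit the stress list had 33 genes called lower, the iron regulon 18 and the ribosome biogenesis list 31 called higher.

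**Figure D5:**
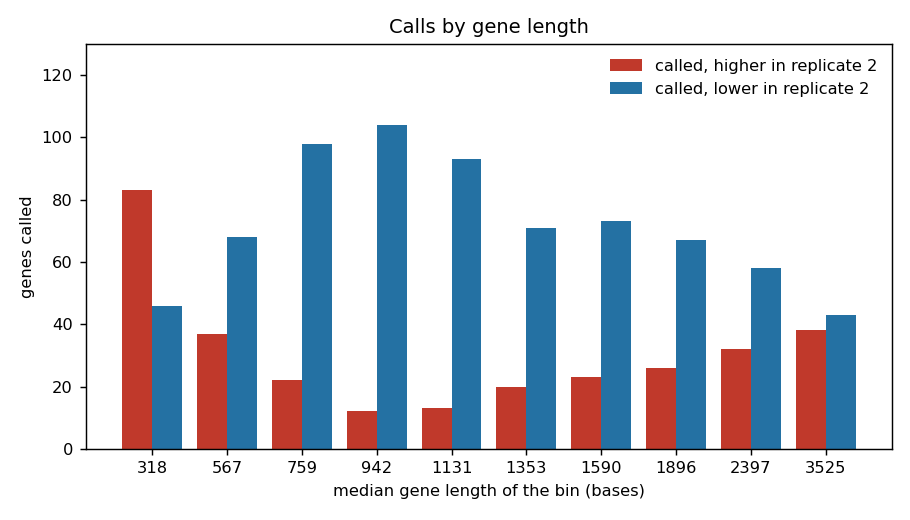
Number of genes called higher (red) and lower (blue) in replicate 2 (vertical axis) in 10 bins of the 5258 genes ordered by gene length, each bin marked by its median length in bases (horizontal axis). The shortest bin, with a median of 318 bases, has 83 called higher and 46 called lower; the fourth has 12 and 104.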

How the data were processed

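The authors deposited 1 log2 value per probe set and array, computed by RMA in affy per the submitters' processing notes (tool versions: not given in the sources used here). Per the labels' protocols, double-stranded cDNA was end-labelled, which does not keep the strand, so sense and antisense transcripts of a locus cannot be told apart. RMA makes array distributions equal, so a change in total RNA is not seen.

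Of 10928 probe sets, 5498 matched S. cerevisiae genes of NCBI's R64 table through the platform annotation, and were averaged per gene (47 genes had several). Gene lengths are the spans in that table, from start to stop codon with any introns. Genes were fitted with limma 3.58.1 in R 4.3.3 (lmFit, eBayes, two-sided, genotype as covariate, 1 residual degree of freedom, prior of 4.09) on all 5449 genes; genes with systematic names starting YIL or YIR were then left out. SEs come from this fit. The p-values rest on how far the replicate difference disagreed between the 2 genotypes, moderated by the prior. This disagreement takes in differences between the 2 deletion arrays and may be technical. An effect shared by both arrays of a date tag is not part of it, and 4 arrays limit the precision. Simulated data held 20 sets of 5449 genes with 200 changed in each. The fit of replicate 2 against replicate 1 recovered 5.6% of 1.5-fold, 59.9% of 2-fold and 98.5% of 4-fold changes. Over the 20 sets, 215 unchanged genes were called as well. Noise was drawn independently for each array, with no effect shared by the arrays of a date tag. More genes were called in the data than were changed per set, so these rates may not carry over.

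Members and gene lists were chosen with earlier results of these data known, so lists carry counts and medians and no test. Named genes are RAD61, the 12 largest called differences per direction among genes above background in both arrays of the replicate where they are higher, up to 4 called members per list (up to 2 by smallest p where none was called), and the mating-type genes; other list members named here were chosen after their values were seen. A bound sets arrays below background to the 95th percentile of the fission yeast probe sets, or the gene's own value where higher. Alternatives are in the closing section. Promoter sequences were not used here.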

Additional observations from a re-analysis of the deposited data

Results flagged for a closer look

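Values in data outside the comparison stood out on single arrays. The S. pombe his5 probe set read 11.91 in deletion replicate 1, and 1 reporter control probe set read 12.45 in deletion replicate 2, against 1.67 as the largest change between the deletion arrays in any other reporter probe set; both deletion arrays carry the same genotype label.

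For 9 gene lists the median relative to all genes lay on opposite sides of 0 in the deletion and in wild type; the difference between genotypes was not tested. Mitochondrial ribosomal proteins were at 0.096 in the deletion and -0.175 in wild type. In the deletion and wild type, amino acid biosynthesis was at -0.229 and 0.18, purine and one-carbon genes at -0.001 and 0.12, and pyrimidine genes at -0.205 and 0.264. Amino acid permeases, in the deletion and wild type, were at -0.188 and 0.097, nitrogen catabolite genes at -0.181 and 0.056, and hexose transporters at -0.01 and 0.04. DNA damage response genes were at -0.076 in the deletion and 0.278 in wild type, and commonly used normalisation genes at 0.008 in the deletion and -0.207 in wild type.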

How the results depend on the processing

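Counts outside chromosome IX were 306 higher and 721 lower in replicate 2. They stayed within 1.5 times of this without the genotype covariate, with a filter on dim genes, with the brightest probe set, with a trended and robust prior and without chromosome IX genes. In the fit over all probe sets both counts were 0; with a required fold of 1.2 they were 1 and 19. Genes called higher numbered 726 with arrays centred, 700 after quantile normalization and 720 after cyclic loess. With the trend on gene length removed the counts were 461 and 1108. Leaving out each array gave 95 to 611 genes higher and 163 to 1133 lower; these fits have no genotype term, and the lone array of a replicate is assumed to vary like the others. All these counts take only genes with the same sign in both genotypes on the arrays as deposited, also where an array was left out. Cyclic loess and the length fit were added after the data had been seen. The causes of these shifts were not tested.

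Of 2608 checks of 174 named genes, 2103 kept their direction and side of the threshold, 484 lost the call, 17 gained it and 4 reversed. The reversals came from leaving out arrays, over which RAD61 ran between -0.94 and 1.53, HMLALPHA1 between -0.68 and 0.34 and STE3 between -0.0455 and 0.46; RAD61 was -0.76 without wild type replicate 2, and its span follows from the genotype, which these fits leave out.

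Medians of 11 of 49 lists, relative to all genes, changed sign under at least 1 alternative. Over the left-out arrays mitochondrial ribosomal proteins ran between -0.221 and 0.137, tRNA synthetases between -0.0060 and 0.0914, amino acid biosynthesis between -0.161 and 0.162 (0.0445 without deletion replicate 1), purine genes between -0.0822 and 0.0928 and pyrimidine genes between -0.174 and 0.173 (0.0824 without deletion replicate 1). Amino acid permeases ran between -0.176 and 0.0511, nitrogen catabolite genes between -0.145 and 0.0518, hexose transporters between -0.0771 and 0.0706 (0.0571 without wild type replicate 1), COS genes between -0.223 and 0.0627, cell wall genes between -0.036 and 0.083 (0.0245 without deletion replicate 1) and DNA damage genes between -0.0402 and 0.368. Amino acid biosynthesis was also 0.00644 with the dim filter, 0.0062 without chromosome IX genes, 0.046 with the length trend removed and 0.00437 after cyclic loess. Pyrimidine genes were 0.00328 with the dim filter, 0.00304 without chromosome IX genes, 0.0397 after quantile normalization and 0.0663 after cyclic loess. COS genes were 0.0198 with the length trend removed.

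No paired analysis was possible because the replicate number is itself what is compared; genotype is already a term of the fit. The search for promoter motifs was not run.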
